A study of Mus musculus with 8 samples.

Results

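The genes described here encode the pore-forming alpha1 subunits of the voltage-gated calcium channels in the mouse hippocampus. The 8 members were chosen by name, as the P/Q, N, L, R and T type genes, and all 8 were found among the 20802 genes of the expression table and among the 18865 genes tested. RNA-seq was run on the hippocampus of 8 male C57BL/6 mice with no transgene, 1 mouse per library. The Anesthesia group (n = 4) had received ketamine at 35 mg/kg intraperitoneally once a day on 5 days from postnatal day 16, and the Control group (n = 4) is described in the treatment protocol as injected with saline, although its sample titles call it untreated. RNA was taken 1 week after the last injection, at an age given as postnatal day 28, so the values date from after the anesthesia and not from during it.

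Voltage-gated calcium channels open when the membrane depolarizes and let calcium into the cell. The alpha1 subunit forms the pore and the voltage sensor and sets the type of the channel. In high-voltage-activated channels, beta and alpha2delta subunits control its trafficking and gating. High-voltage-activated channels comprise the P/Q and N types, which trigger transmitter release at nerve terminals, the R type, which also acts in dendrites and spines, and the L type, which couples neuronal activity to gene transcription. The low-voltage-activated T type opens near the resting potential and supports burst firing.

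In all 8 members the mean was higher in the Anesthesia group, and no member passed the test across all genes. Log2 fold changes ran from 0.10 (Cacna1e) to 0.43 (Cacna1a) with a median of 0.24, against a median of -0.0036 over all genes tested, of which 49.2% had a log2 fold change above 0. The adjusted p of limma lay between 0.576 and 0.79 for the members, and 0 of the 18865 genes (0%) passed at 0.05. By the unadjusted p, 3 of 8 members were under 0.05 (Cacna1a, Cacna1b and Cacna1d), all higher in the Anesthesia group, against 1513 genes or 8.02% of all genes in either direction, 4.75% higher and 3.27% lower. The groups did not overlap for 2 of 8 members (Cacna1a and Cacna1b), against 5.04% of all genes, 2.81% with the Anesthesia group higher and 2.23% with it lower. Members share their mice and libraries, so the 8 genes are not independent observations of the treatment. The study's own DESeq2 test of these groups, which was not rerun here, reported differentially expressed genes at an adjusted p under 0.05.

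Values are normalized counts, the deposited expression signal, and fold changes are on the log2(value + 1) scale. Totals of normalized counts lay between 18702634 and 19231119 per mouse, corresponding to approximately 15400000 to 22100000 reads on genes. Markers of the hippocampal fields were present in every mouse, with summed levels of 9026 to 10822 for 7 CA1 markers, 5402 to 7397 for 7 CA3 markers and 7713 to 14746 for 8 dentate granule cell markers. The libraries stood apart in the 12 choroid plexus markers, none of which was at 0 in any mouse. Their summed level was 58223, 1034, 524 and 3536 in Anesthesia mice 1 to 4 and 688, 26924, 67874 and 67425 in Control mice 1 to 4, and all 12 had a lower mean log2 level in the Anesthesia group. In tissue RNA, fewer cells of a type and less RNA per cell cannot be told apart.

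Members were also long, and Cacna1a and the T type genes were GC-rich. Their longest annotated transcripts ran from 7926 bases (Cacna1a) to 14921 bases (Cacna1e), between the 94.8th and the 99.6th percentile of the genes tested, whose median was 3102 bases. GC content ran from 48.3% (Cacna1e) to 60% (Cacna1h), against a median of 48.4%. In percentiles of GC content, Cacna1a and the T type genes lay at 91.9 to 96.1 and the other members at 49 to 71.3. A correction of each library for its trend on GC content and transcript length lowered the median log2 fold change of the members to 0.081. Over all genes the median was -0.014 after the same correction. Of the 8 corrected members, 7 were above 0. Cacna1a alone, 1 of 8, had an unadjusted limma p under 0.05, against 6.24% of all genes under the same correction. Corrected values are therefore given beside each member.

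Cacna1a, the P/Q type gene and the main source of calcium for fast transmitter release at many central synapses, had the largest log2 fold change of the 8. The gene (ENSMUSG00000034656) lies on the plus strand of chromosome 8 from 84388440 to 84640246 in GRCm38. Its normalized counts were 1700, 1992, 2745 and 2021 in Anesthesia mice 1 to 4 and 1636, 1635, 1440 and 1463 in Control mice 1 to 4. Every Anesthesia mouse was above every Control mouse, with mouse 3 far above the rest and mouse 1 only just above the Control group. Means were 2115 ± 445 and 1543 ± 107 (SD, n = 4 each). The log2 fold change was 0.43 (SE 0.13, 95% interval 0.16 to 0.71), with an unadjusted p of 0.0056 and an adjusted p of 0.576 from limma. The two-sided exact permutation p was 0.0286, the smallest that 4 against 4 mice allow. After the correction for GC content and length the log2 fold change was 0.28 (SE 0.10, 95% interval 0.053 to 0.51), and without Anesthesia mouse 3 it was 0.30.

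Cacna1b, the N type gene, whose channels share the nerve terminal with the P/Q type, showed the same separation with a smaller difference. It (ENSMUSG00000004113) lies on the minus strand of chromosome 2 from 24603887 to 24763152. Anesthesia mice 1 to 4 had 2841, 3065, 3564 and 2856 normalized counts, and Control mice 1 to 4 had 2765, 2413, 2554 and 2819. The groups did not overlap, yet the lowest Anesthesia mouse and the highest Control mouse were separated by less than the SD of either group. Means were 3081 ± 338 and 2638 ± 188 (SD, n = 4 each), and their difference was 0.22 on the log2 scale (SE 0.083, 95% interval 0.037 to 0.40). Limma gave an unadjusted p of 0.0229 and an adjusted p of 0.62, and the exact permutation p was 0.0286. The corrected value was 0.082, with a 95% interval of -0.064 to 0.23.

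Cacna1e, the R type gene, was the most abundant member and the one with the smallest difference. It (ENSMUSG00000004110) lies on the minus strand of chromosome 1 from 154390731 to 154884501. Its normalized counts were 14210, 16348, 15680 and 14353 in the Anesthesia group and 15571, 14582, 13516 and 13045 in the Control group. The groups overlapped, with Control mouse 1 above Anesthesia mice 1 and 4. Means were 15148 ± 1039 and 14178 ± 1129 (SD, n = 4 each). The difference was 0.10 on the log2 scale (SE 0.07, 95% interval -0.06 to 0.25, limma adjusted p = 0.726), and it turned to -0.02 after the GC content and length correction.

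**Figure D1:**
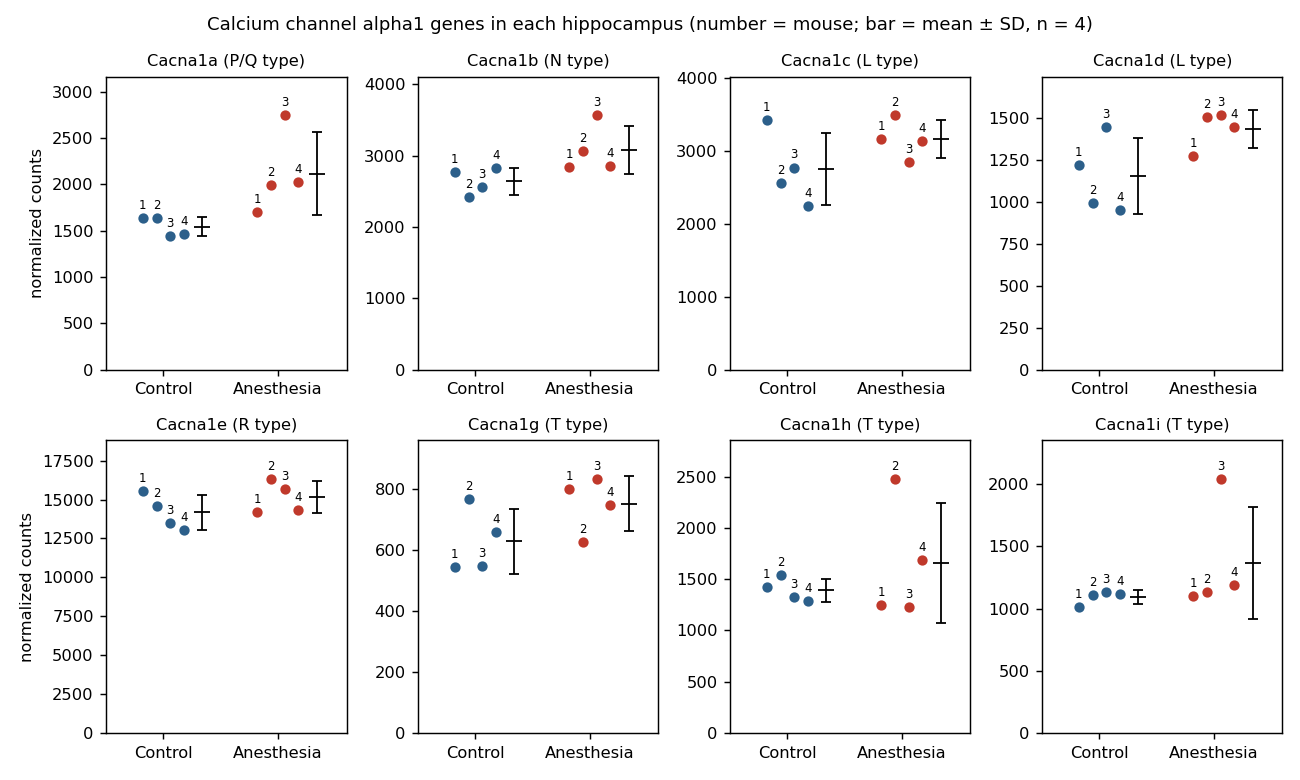
Normalized counts of the 8 alpha1 genes in each mouse, 1 panel per gene, with 4 Anesthesia and 4 Control mice as points and group means with SD as bars. Groups are apart for Cacna1a and Cacna1b and overlap for the other 6, and single Anesthesia mice lie far above the rest for Cacna1i (2045) and Cacna1h (2481).

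Both L type genes had higher means in the Anesthesia group, with overlapping mice. Cacna1c, the main L type pore of the brain and heart, (ENSMUSG00000051331, chromosome 6, 118587240 to 119196418, minus strand) had 3163, 3486, 2845 and 3135 normalized counts in the Anesthesia group and 3423, 2561, 2770 and 2247 in the Control group. Control mouse 1 exceeded all Anesthesia mice but mouse 2, while the other Control mice lay below every Anesthesia mouse. The log2 fold change was 0.21 (SE 0.12, 95% interval -0.043 to 0.47, limma adjusted p = 0.664) and 0.081 after correction. Without Control mouse 1 it was 0.32, and without Control mouse 4 it was 0.12.

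Cacna1d, the L type pore that opens at more negative voltages and serves pacemaking, (ENSMUSG00000015968, chromosome 14, 30039939 to 30491455, minus strand) was measured at 1271, 1504, 1516 and 1445 in the Anesthesia group and at 1222, 994.6, 1446 and 951.6 in the Control group. The Anesthesia mice were close together, and the Control mice were split into a higher and a lower pair, so that Control mouse 3 lay above Anesthesia mice 1 and 4. Means were 1434 ± 113 and 1154 ± 228 (SD, n = 4 each). The log2 fold change of 0.33 (SE 0.13, 95% interval 0.053 to 0.61) had an unadjusted p of 0.0238 and an adjusted p of 0.62 in limma, and the exact permutation p was 0.0857. The corrected value was 0.22, with a 95% interval of -0.056 to 0.50. The skeletal muscle L type gene Cacna1s was near the floor, at 9.69 to 18.6 in the Anesthesia group and 1.21 to 18.2 in the Control group, and the retinal L type gene Cacna1f was not analysed here.

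The 3 T type genes had similar log2 fold changes that rested on different mice. Cacna1g (ENSMUSG00000020866, chromosome 11, 94408391 to 94474198, minus strand), known for burst firing of thalamic relay neurons, had 800.6, 627.5, 834.9 and 749.8 normalized counts in the Anesthesia group and 544.5, 768.5, 547 and 658.9 in the Control group. Anesthesia mouse 2 lay below Control mice 2 and 4. Its log2 fold change was 0.26 (SE 0.13, 95% interval -0.017 to 0.55, limma adjusted p = 0.636) and 0.10 after correction.

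Cacna1h (ENSMUSG00000024112, chromosome 17, 25374285 to 25433783, minus strand), the T type gene also known from pain-sensing neurons, was measured at 1245, 2481, 1227 and 1683 in the Anesthesia group and at 1422, 1539, 1329 and 1285 in the Control group. Anesthesia mice 1 and 3 were the lowest of all 8 and mice 2 and 4 the highest. Its log2 fold change of 0.19 (SE 0.19, 95% interval -0.23 to 0.62, limma adjusted p = 0.79) turned to -0.021 without Anesthesia mouse 2, and was 0.0081 after correction.

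Cacna1i (ENSMUSG00000022416, chromosome 15, 80287238 to 80398279, plus strand), the slowest-gating T type gene, had 1104, 1136, 2045 and 1186 normalized counts in the Anesthesia group and 1015, 1110, 1137 and 1120 in the Control group. Anesthesia mouse 3 stood alone, and the other Anesthesia mice lay within or just above the Control range. In log2 terms the difference was 0.27 (SE 0.17, 95% interval -0.11 to 0.65, limma adjusted p = 0.692), 0.061 without Anesthesia mouse 3 and 0.062 after correction.

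**Figure D2:**
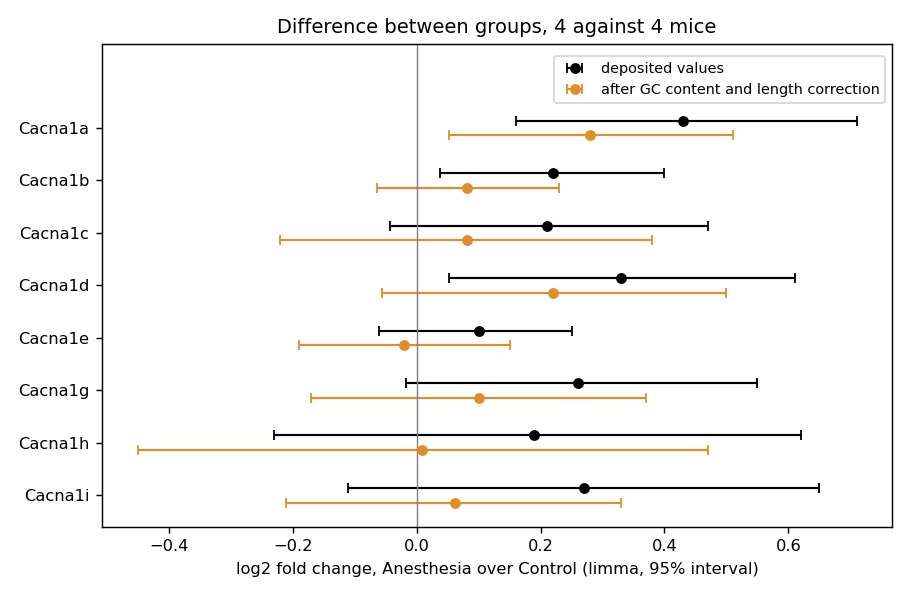
Log2 fold change of each alpha1 gene, Anesthesia over Control, with its 95% interval from limma, before and after correction for GC content and transcript length (n = 4 mice per group). All 8 uncorrected values lie above 0, and the corrected values run from -0.02 (Cacna1e) to 0.28 (Cacna1a).

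The highest values came from Anesthesia mice 2 and 3. The highest of the 8 mice was Anesthesia mouse 3 for 5 members (Cacna1a, Cacna1b, Cacna1d, Cacna1g and Cacna1i) and Anesthesia mouse 2 for the other 3. The median log2 deviation of the members from the Control mean was 0.13, 0.29, 0.42 and 0.24 in Anesthesia mice 1 to 4 and 0.078, 0.032, -0.054 and -0.094 in Control mice 1 to 4. Without Anesthesia mice 2 and 3 the median log2 fold change was 0.16, and 1 of 8 members, Cacna1a at 0.27, had an unadjusted limma p under 0.05, against 5.09% of all genes in that fit. All 8 values stayed above 0, from 0.014 for Cacna1e to 0.31 for Cacna1g.

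Markers of other tissues moved with some of these mice. Anesthesia mice 2 and 3 were poor in choroid plexus RNA, as was Control mouse 1. Among the 4 mice poor in it, Cacna1a was 1992 to 2745 in Anesthesia mice 2 to 4 and 1636 in Control mouse 1, and among the 4 rich in it, 1700 in Anesthesia mouse 1 and 1440 to 1635 in the Control mice. Over the 8 members, every Anesthesia mouse was above the lone Control mouse poor in it for 5 (Cacna1a, Cacna1b, Cacna1d, Cacna1g and Cacna1i), with overlap for the other 3. The lone Anesthesia mouse rich in it was above all 3 Control mice for 4 (Cacna1a, Cacna1b, Cacna1c and Cacna1g) and below them for 2 (Cacna1h and Cacna1i). With 1 mouse in an arm, these splits allow no test. With the choroid plexus score as a covariate the members' median was 0.17 and 1 of 8, Cacna1a at 0.29, had an unadjusted limma p under 0.05, against 4.33% of all genes. The thalamus score was the mean log2 deviation of 9 markers from their Control means. It was -0.015, -0.17, 0.20 and 0.011 in Anesthesia mice 1 to 4 and between -0.11 and 0.075 in the Control group. Summed levels were 3959, 3697, 5290 and 4201 in Anesthesia mice 1 to 4 and 3671 to 3999 in the Control group, with no marker at 0. Anesthesia mouse 3, the highest in this score, was also the highest for Cacna1a, Cacna1b, Cacna1d, Cacna1g and Cacna1i, which was not tested. With the thalamus score as a covariate, 6 of 8 members had an unadjusted limma p under 0.05, against 10.1% of all genes. The score of 8 nuclear-retained RNAs did not overlap between groups, at 0.051 to 0.29 in the Anesthesia group and -0.0088 to 0.013 in the Control group, and 7 of the 8 were higher. Its part in the result was not tested.

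The mean scores of the hippocampal cell type lists overlapped between the groups. Singly, 2 of 7 astrocyte, 1 of 7 CA3 and 1 of 7 microglia markers did not overlap, against 5.04% of all genes. At an unadjusted limma p under 0.05, 1 of 7 CA3 markers was higher, and 1 of 7 CA1 and 1 of 9 GABAergic markers were lower. Over all genes 8.02% were under 0.05 in either direction. Median log2 fold changes were -0.094 for CA1 pyramidal, -0.17 for CA3 pyramidal, -0.046 for dentate granule and -0.034 for GABAergic neuron markers. They were -0.10 for 7 astrocyte, -0.065 for 8 oligodendrocyte, 0.065 for 7 microglia, 0.015 for 7 endothelial and -0.22 for 5 blood markers. The dentate granule score was highest in Anesthesia mouse 2 (0.58) and lowest in Anesthesia mouse 3 (-0.49), the mice in which Cacna1h was highest and lowest. That co-movement was not tested.

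**Figure D3:**
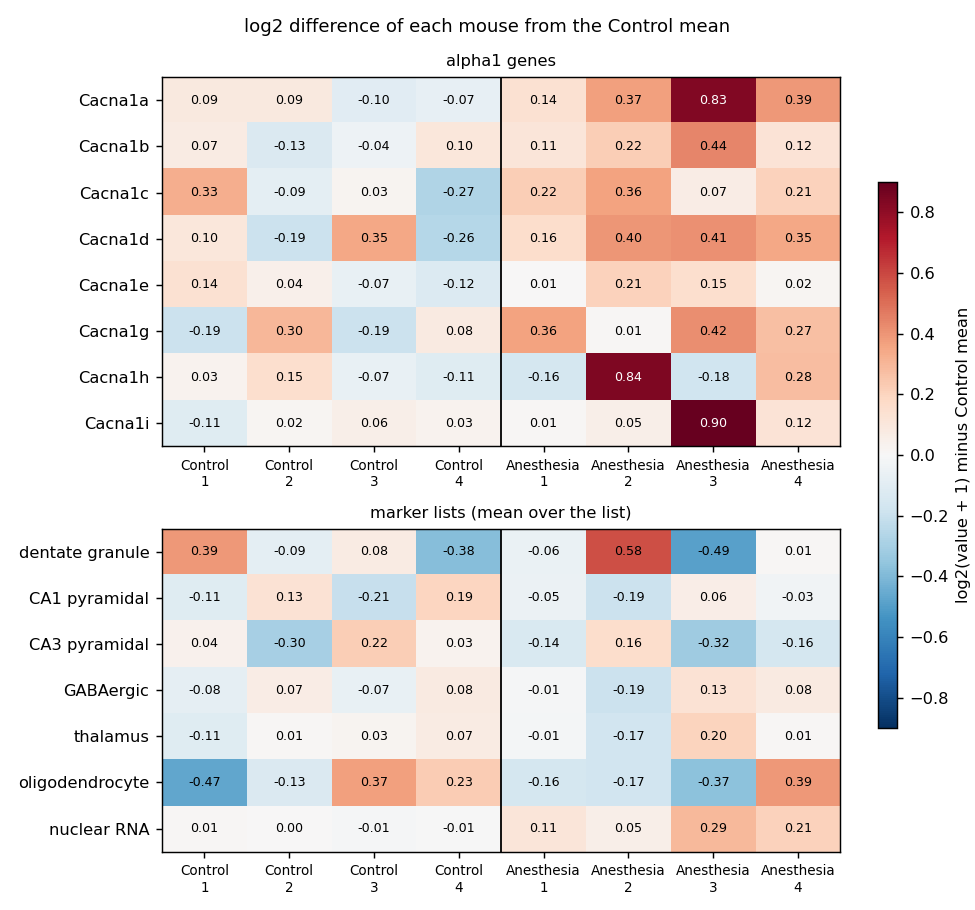
Log2 deviation of each alpha1 gene from its Control mean in each of the 8 mice, with the scores of marker lists below. Cacna1a and Cacna1i reach 0.83 and 0.90 in Anesthesia mouse 3, and Cacna1h reaches 0.84 in Anesthesia mouse 2.

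Levels were compared between members as normalized counts per kilobase of the longest annotated transcript. The R type gene Cacna1e led in the Control group with 950 ± 75.7 per kilobase (SD, n = 4), which was 45.2% of the summed level of the 8 genes. The N type gene Cacna1b followed with 271 ± 19.3, the L type gene Cacna1c with 209 ± 37.8 and the P/Q type gene Cacna1a with 195 ± 13.4. Below them came Cacna1h with 169 ± 13.7, Cacna1d with 119 ± 23.6, Cacna1i with 112 ± 5.6 and Cacna1g with 75.1 ± 12.7. Cacna1e exceeded Cacna1b 3.51-fold on average and in 8 of 8 mice, and the span from highest to lowest member was 12.6-fold. Control ranges overlapped between neighbours from Cacna1b down to Cacna1h and between Cacna1d and Cacna1i. Levels of different genes in the same mouse are paired, so neighbours were also compared within each mouse. Within a mouse, Cacna1b exceeded Cacna1c in 8 of 8 mice, Cacna1c exceeded Cacna1a in 4 of 8, Cacna1a exceeded Cacna1h in 7 of 8 and Cacna1d exceeded Cacna1i in 5 of 8. The order depends on the transcript taken as the length: with the median annotated transcript, 2 of 8 members kept their place, Cacna1e as the highest and Cacna1g as the lowest. Cacna1e then exceeded the next member, Cacna1i, 1.68-fold, and the span was 39.7-fold. The median lengths were 586.5 bases for Cacna1i, 1153 for Cacna1a and 1270.5 for Cacna1h. Their longest transcripts had 9781, 7926 and 8230 bases, so their places in this second order rest on short annotated transcripts.

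**Figure D4:**
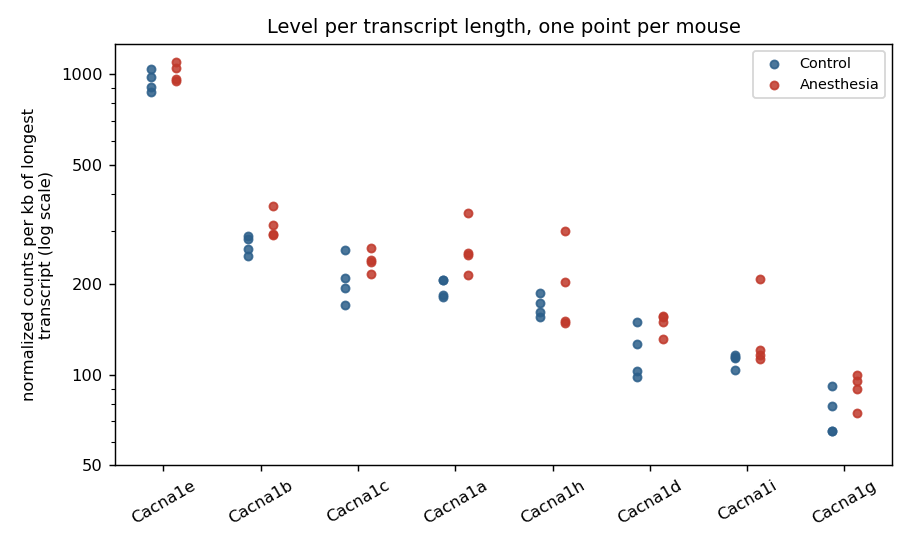
Level of each alpha1 gene in normalized counts per kilobase of its longest transcript, on a log axis, with each mouse as a point, ordered by the Control mean. Cacna1e lies above all other members in every mouse and Cacna1g has the lowest Control mean.

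The share of Cacna1e in the summed level per kilobase was 43.5%, 42.6%, 40.5% and 41.6% in Anesthesia mice 1 to 4 and 46.1%, 46.1%, 44.1% and 44.5% in Control mice 1 to 4. Every Anesthesia mouse was below every Control mouse, narrowly at 43.5% against 44.1%, while the level of Cacna1e itself overlapped between groups. The summed level holds the other members, whose means were all higher in the Anesthesia group, so this share falls as they rise. Shares were taken from values without the GC content and length correction and with the longest transcript as the length. The T type genes together made up 16.4% to 19.1% in the Anesthesia group and 15.1% to 18.5% in the Control group. Ratios between related members also overlapped: the log2 ratio of the levels per kilobase of Cacna1a to Cacna1b was -0.44 to -0.08 in the Anesthesia group and -0.65 to -0.27 in the Control group, and that of Cacna1c to Cacna1d was 0.46 to 0.87 and 0.49 to 1.04. The log2 ratio of Cacna1g to Cacna1h was -2.01 to -0.58 in the Anesthesia group and -1.41 to -0.99 in the Control group, with Anesthesia mouse 2 the lowest of all 8 mice. That of Cacna1g to Cacna1i was -1.07 to -0.24 and -0.83 to -0.31.

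Likeness of profiles was measured as the root mean square difference between log2 profiles standardized over the 8 mice, where 0 is an identical shape and the median over all genes was 1.32 to 1.34. Cacna1a and Cacna1b were each other's nearest member at 0.516, and Cacna1i was nearest to Cacna1a at 0.534. Cacna1c and Cacna1e were paired at 0.693, and Cacna1d was nearest to Cacna1c at 0.762. Of the remaining T type genes, Cacna1g was at 0.856 from Cacna1a and Cacna1h at 0.89 from Cacna1e. Many other genes were nearer than these members, from 222 genes for Cacna1b and 446 for Cacna1a to 2053 for Cacna1g and 2054 for Cacna1h. Of all genes, the nearest to Cacna1a was Cyp46a1, the neuronal enzyme that hydroxylates cholesterol for export from the brain, at 0.0969. Its normalized counts were 1121, 1245, 1584 and 1261 in the Anesthesia group and 1114, 1122, 978 and 1021 in the Control group. The nearest genes to the other members were Adgrf5 for Cacna1b (0.15), Cdca4 for Cacna1c (0.203), Gm42892 for Cacna1d (0.195), Gm38309 for Cacna1e (0.26), Rell2 for Cacna1g (0.248), Cdc42bpa for Cacna1h (0.231) and AC124108.1 for Cacna1i (0.187). These are descriptions over 8 mice, which share libraries.

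Of 55 genes listed as channel partners, 54 were found and 53 tested, with 31 higher, 22 lower and 0 at an adjusted limma p under 0.05 (adjusted p 0.565 to 0.983). At an unadjusted p under 0.05, 5 were higher and 1 was lower, and 3 did not overlap between groups, against the shares of all genes given above. The median log2 fold change was 0.05, and 0.033 after the GC content and length correction.

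The 4 beta subunits, which carry high-voltage-activated alpha1 subunits to the membrane, were all higher. Their median log2 fold change was 0.18, or 0.11 after correction. Of all partner and marker lists, only this one and the nuclear-retained RNAs had a mean log2 score without overlap between groups. Each of the 4 beta subunit genes overlapped singly. Their summed level overlapped too, at 7992 to 10813 in the Anesthesia group and 7503 to 8201 in the Control group. Cacnb3 had 1138, 1145, 1338 and 1150 normalized counts in the Anesthesia group and 1061, 1142, 928.7 and 1003 in the Control group. Only Anesthesia mouse 3 was clearly above the Control range, and 1 Anesthesia mouse lay below Control mouse 2. The log2 fold change of Cacnb3 was 0.21 (SE 0.082), with an unadjusted p of 0.0301 and an adjusted p of 0.62 in limma, and it was 0.14 after correction, no longer under an unadjusted p of 0.05. Of the 4 alpha2delta subunits, which raise channel density at the surface, 1 was higher and 3 were lower, with a median of -0.023. Cacna2d1 was at 0.13 and Cacna2d3 at -0.024. Of 7 gamma subunits and AMPA receptor regulatory proteins, 4 were higher and 3 lower, with Cacng2 at 0.18 and Cacng4 at -0.50 (limma adjusted p = 0.707 and 0.66).

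Active zone proteins tether presynaptic calcium channels to the release sites, and AKAPs anchor protein kinase A near channels. Of 8 such anchors, among them the AKAP genes Akap5 and Akap7, 7 were higher. The median log2 fold change of the 8 was 0.17, or 0.14 after correction. Tspoap1, also called RIM-BP1, had 3386, 3764, 3803 and 3292 normalized counts in the Anesthesia group and 3031, 2630, 2978 and 2808 in the Control group. Rims1, the scaffold that binds these channels, had 3254, 3639, 4569 and 3675 against 3123, 2926, 2889 and 3142. The groups did not overlap for either gene. Tspoap1 had a log2 fold change of 0.31 (SE 0.069, limma adjusted p = 0.565), which was 0.17 after correction. Rims1 was at 0.32 (SE 0.092, limma adjusted p = 0.593) and at 0.30 after correction. Rimbp2 was at 0.28 (limma adjusted p = 0.62) with overlapping groups and at 0.19 after correction, no longer under an unadjusted p of 0.05, and Erc2 was at -0.017.

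Of 11 calmodulin and channel modulator genes tested, 3 were higher and 8 lower, with a median of -0.11. Gem, a small GTPase that inhibits high-voltage-activated channels through their beta subunits, was low in every mouse, at 25.93, 32.61, 31.13 and 34.60 normalized counts in the Anesthesia group and 43.77, 45.96, 38.44 and 50.59 in the Control group. Every Anesthesia mouse was below every Control mouse. Gem had a log2 fold change of -0.51 (SE 0.18), with an unadjusted p of 0.0178 and an adjusted p of 0.62 in limma, and it was -0.51 after correction too. Cabp1, a calcium sensor of L and P/Q type channels, was at 0.24 (limma adjusted p = 0.666).

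Genes that act on calcium after its entry were mixed. Of 6 store release channels, 4 were higher. Ryr1 had a log2 fold change of 0.60 (SE 0.27), with an unadjusted p of 0.0472 and an adjusted p of 0.622 in limma. After correction it was 0.37, no longer under an unadjusted p of 0.05. Ryr1 was measured at 623.3, 451.5, 376.8 and 477.1 in the Anesthesia group and at 578, 265.6, 286.1 and 217.6 in the Control group, so 1 Control mouse lay among the highest. Itpr2 was at -0.16, with an unadjusted limma p of 0.188. After correction it was at -0.28, with an unadjusted limma p of 0.04. The median of the 6 turned from 0.052 to -0.07 after correction, with 1 of 6 above 0. Of 5 calcium-activated potassium channel genes, 4 were higher, with Kcnmb4 at 0.12 and Kcnn2 at -0.03. The median of the 5 was 0.10, or 0.046 after correction with 3 of 5 above 0. Of 8 calcium pumps and exchangers, 4 were higher and 4 lower with a median of -0.0032. Atp2b2, a plasma membrane calcium pump, had 7734, 9554, 13681 and 8868 normalized counts against 7515, 7896, 7764 and 8452, with Anesthesia mouse 3 far above the others, and Slc8a1 was at -0.10.

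**Figure D5:**
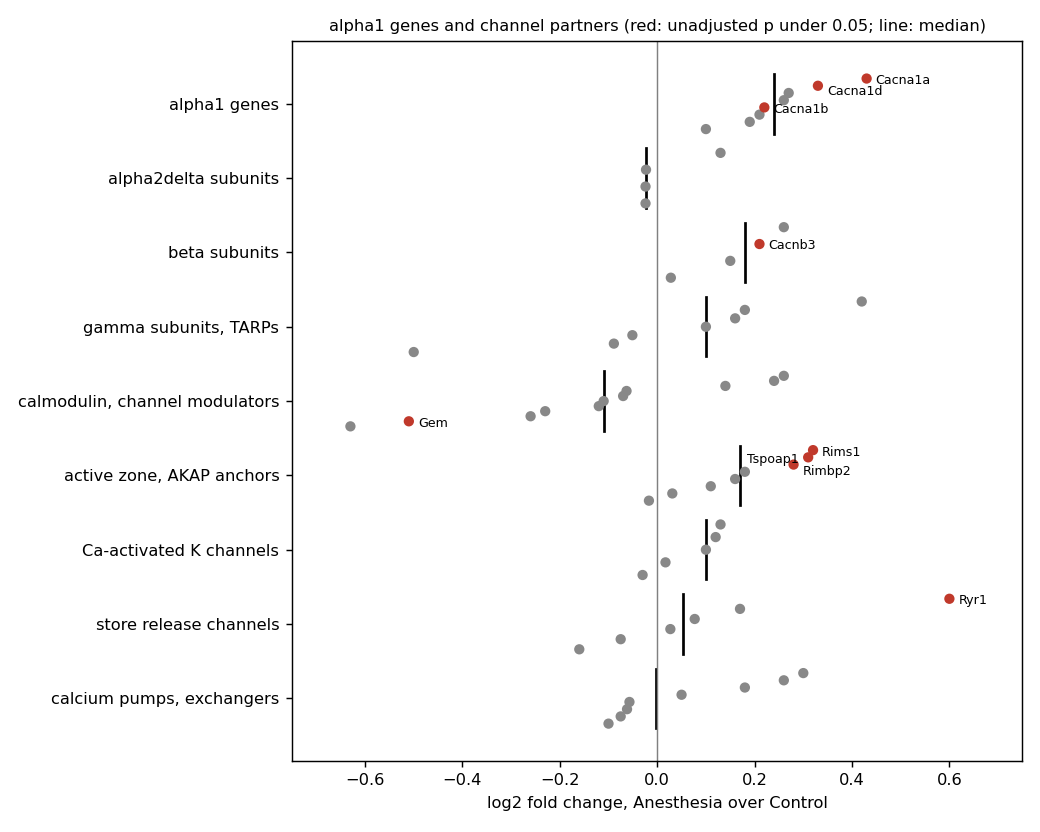
Log2 fold change, Anesthesia over Control, of the 8 alpha1 genes and of the channel partners by list, with list medians as vertical lines and genes at an unadjusted limma p under 0.05 in red. The medians are 0.24 for the alpha1 genes, 0.18 for beta subunits, 0.17 for the anchors and -0.11 for calmodulin and channel modulators.

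Other genes overlap the position of 4 members. Whether their exons overlap is not given here, so shared reads are possible but not shown. Gm16183 lies antisense to Cacna1a with 4.89 to 25.1 normalized counts, and Gm13459 lies opposite Cacna1b with 20.7 to 40. Dcp1b (270 to 399) and Gm18981 (23.8 to 57.9) overlap Cacna1c, and Chdh (105 to 211) and Dcp1a (549 to 703) overlap Cacna1d. How the strand was set in the quantification is not given in the sources used here.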

How the data were processed

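Per the study's methods and the labels, the authors quantified the reads by quasi-mapping against GRCm38 in Salmon 1.1.0, corrected for GC bias, summarised them per gene with tximport and normalized them with DESeq2 v1.30.1 in R v3.5.3. The deposited values are this normalized signal (normalized counts), not read counts. The annotation release and the filter on low genes are not given in the sources used here, and methods and labels name different library kits, of which only the one in the methods is described as stranded. In the columns 50.5 to 73.1% of low values lay within 0.1 of whole reads. Whole reads could therefore not be had, and models of raw read counts were left out. As provided for in the design for normalized values, limma 3.58.1 in R 4.3.3 modelled log2(value + 1), using a trended prior variance, for the 18865 of 20802 genes whose mean reached 10, with no covariate and Benjamini-Hochberg adjustment at 0.05. Exact permutation tests were two-sided. Nothing beyond mouse numbers describes litters or batches. Gene names, positions and transcripts came from GENCODE M21 (GRCm38), which named 20784 of 20802 identifiers. GC content and length were corrected by a loess trend (span 0.3) in each library. The code was tested on simulated data. The members and the lists (channel partners; markers of CA1, CA3, dentate granule, GABAergic, thalamus, choroid plexus, astrocyte, oligodendrocyte, microglia, endothelium and blood; nuclear-retained RNAs) were chosen with earlier results of these data known. Named partners are those with an unadjusted p under 0.05 and the smallest p in each direction of each list, and the nearest profiles were named for each member. Alternatives were other pseudocounts, filters, scalings, covariates, limma voom run on the normalized values, a replicate block and leaving out mice.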

Additional observations from a re-analysis of the deposited data

Results flagged for a closer look

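Across the 8 alpha1 genes, their ratios, and the named partners and marker lists, 4 of 84 groups of 4 mice held a mouse set apart from the other 3 by more than Dixon's 95% critical value, and chance gives about 4.2. Among the members this was Cacna1i, with 2045 normalized counts in Anesthesia mouse 3 against 1104 to 1186 in the other Anesthesia mice (gap over range 0.912). Cacnb3 was at 1338 in the same mouse, against 1138 to 1150 (0.941). Cacna2d3 was at 2203 in Anesthesia mouse 1, against 2424 to 2456 (0.873). Kcnmb4 was at 617.5 in Control mouse 4, against 564.8 to 567.4 (0.951).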

How the results depend on the processing

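Over 20 alternatives, 157 of 160 values of single members kept their direction without an adjusted p under 0.05 (lowest 0.265). The other 3 reversed: Cacna1e was at -0.02 after the GC content and length correction, with and without the replicate block, and Cacna1h at -0.021 without Anesthesia mouse 2 (-0.021 to 0.32 leaving out 1 mouse). The members' median log2 fold change, 0.24, was 0.081 with that correction, with and without the block, and 0.21 to 0.28 leaving out 1 mouse. Members at an unadjusted p under 0.05, 3 in the fit as reported, numbered 1 with that correction (with or without the block), 1 with the choroid plexus covariate, 1 without Anesthesia mice 2 and 3 (chosen after seeing the data), 6 with the thalamus covariate and 1 (without Anesthesia mouse 3) to 4 leaving out 1 mouse. Members above 0 numbered 7 to 8. Over all genes the 1513 at that level became 847 with the correction and block, 817 with the choroid plexus covariate, 961 without Anesthesia mice 2 and 3, and 1061 to 2022 leaving out 1 mouse. Genes with an adjusted p under 0.05 were 2 without Control mouse 1 and 0 to 2 over all such fits. The share of higher genes among unadjusted calls was 59.3% as reported, 65.5% with upper quartile scaling, 51.2% with library size scaling and 51.2% with the correction. With the median transcript as the length, 2 of 8 members kept their place in the order of levels. Equal mouse numbers did not pair the mice (correlations of deviations -0.242, -0.109, -0.182 and 0.0194), and the fit with a replicate block called 0 genes after adjustment and 1084 before. Precision is limited by 4 mice a group.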
